A study of Mus musculus with 175 samples.

Results

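The red cell membrane genes Sptb, Ank1, Epb42, Slc4a1, Rhag, Rhd, Ermap and Kel were examined in single progenitors of the mouse fetal liver. They were taken by their symbols from the deposited gene annotation, where each matched 1 feature, and make up 8 of 49585 mouse features. The cells were Megakaryocyte-Erythroid Progenitors (MEPs) and Common Myeloid Progenitors (CMPs) sorted as CD41- CD150+ after red blood cell lysis, each divided by a reporter in which human CD4 is expressed from the proximal promoter (P2) of Runx1. All embryos were C57BL/6 crossed with ICR at day 14.5 and carried the Runx1 P1-GFP::P2-hCD4/+ reporter alleles, which 1 label field writes as P2-GFP::P2-hCD4/+, so that the P2- and P2+ cells shared 1 genotype and differed only in the reporter signal used to sort them. The lineage stain of the sort included TER119, a protein of maturing red cells, so that such cells were left out, and the MEPs were taken as CD34- and the CMPs as CD34+. After quality filters 172 of 175 cells remained, namely 56 P2- and 47 P2+ MEPs with 27 P2- and 42 P2+ CMPs, which had between 295064 and 1540631 reads on mouse genes per cell. The CMPs are labelled low and high, which was read here as P2- and P2+, and the label of 1 P2- CMP conflicts with its group.

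Livers of 2 litters were pooled before sorting, and hence each of the 4 populations is a single sample without replicates. For this reason no p-values are given. Levels are in CPM, the reads of a gene per 1000000 mouse reads, taken over all cells of a population together. Their 95% intervals cover the counting error of reads only. PCR copies were counted as separate reads, so that the intervals are too narrow for transcripts, and they leave out the spread between cells. The intervals of shares of cells likewise describe the cells of 1 sample each and leave out the spread between samples, so that whether they overlap is no test of a difference between populations. A population without a read of a gene was set to a floor of 3 reads, and ratios against it are bounds at that floor, which leave out the counting error of the other population unless its limit is given. In pooled values fewer cells with a transcript and less transcript per cell cannot be told apart, and therefore the values of single cells are given beside them.

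The red cell membrane rests on a mesh of long and flexible spectrin tetramers. Ankyrin-1 and protein 4.2 tie this mesh to band 3, the anion exchanger of the red cell, while a second anchor runs through actin, adducin and protein 4.1. Other proteins of the same membrane carry blood groups, such as the Rh proteins with their glycoprotein RHAG, the Scianna protein ERMAP and the Kell protein, which is a zinc endopeptidase linked to XK. Most of these genes are used strongly by maturing erythroblasts, and many are under the control of the erythroid factors GATA1 and KLF1.

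The sorted cells carried markers of the labelled progenitors. Summed CPM of 8 erythroid markers was 1726 in P2- and 988 in P2+ MEPs, against 847 in P2- and 466 in P2+ CMPs, and all 8 had reads in every population. The sum does not hold for each marker, since the beta-globin gene Hbb-bt was at 9.51 and 9.79 CPM in the MEPs but at 232.2 CPM in P2- and 120.6 CPM in P2+ CMPs, and Alas2, the erythroid enzyme of heme synthesis, was at 1.08 CPM in P2- and 4.18 CPM in P2+ MEPs. Of 6 granulocyte/monocyte markers, 3 had reads in P2- MEPs (9.80 CPM summed) and all 6 in P2+ CMPs (525 CPM). The 6 megakaryocytic markers summed to 64.8 CPM in P2- MEPs, where Pf4 and Gp9 were at 0, against 405 CPM in P2+ MEPs, and to 442 and 535 CPM in P2- and P2+ CMPs. The 5 stem and multipotent markers summed to between 278.8 and 948 CPM. Of the cell types that the sort should not hold, 5 macrophage markers summed to between 0.0545 and 1.49 CPM, with Adgre1, C1qa and C1qb at 0 in all populations, and 5 hepatocyte markers to between 10.3 and 24.7 CPM, with Serpina1a at 0 in all populations. The part of these differences in the results on the members was not tested.

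The upstream sequences of 5 members are shown because 4 of them, Rhag, Rhd, Ermap and Kel, had the highest levels per length in P2- MEPs and Sptb was the member whose pooled level was not lower in P2+ MEPs. They are RefSeq sequences of GRCm38.p6, which cover up to 250 bases before the start of the gene and end before the first base of any annotated transcript. Capitals mark GATAA, the core that GATA1 binds, and CACCC, the core that KLF1 binds, each on either strand (TTATC and GGGTG).
Rhag, chr17:40810899-40811125, plus strand: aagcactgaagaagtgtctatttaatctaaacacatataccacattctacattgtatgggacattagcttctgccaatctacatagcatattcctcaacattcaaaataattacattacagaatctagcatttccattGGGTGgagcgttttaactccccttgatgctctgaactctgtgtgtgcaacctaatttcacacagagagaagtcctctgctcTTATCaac
Rhd, chr4:134864286-134864535, plus strand: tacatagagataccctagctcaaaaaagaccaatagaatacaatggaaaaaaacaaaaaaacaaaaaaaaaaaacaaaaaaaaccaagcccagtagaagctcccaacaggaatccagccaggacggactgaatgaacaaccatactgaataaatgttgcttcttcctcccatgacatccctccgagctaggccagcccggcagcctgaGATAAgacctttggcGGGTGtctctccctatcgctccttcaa
Ermap, chr4:119190012-119190245, minus strand: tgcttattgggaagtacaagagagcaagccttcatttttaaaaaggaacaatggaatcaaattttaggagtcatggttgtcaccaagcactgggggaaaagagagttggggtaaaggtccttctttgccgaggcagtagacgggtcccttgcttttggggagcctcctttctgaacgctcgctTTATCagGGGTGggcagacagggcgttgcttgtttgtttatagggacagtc
Kel, chr6:41704340-41704575, minus strand: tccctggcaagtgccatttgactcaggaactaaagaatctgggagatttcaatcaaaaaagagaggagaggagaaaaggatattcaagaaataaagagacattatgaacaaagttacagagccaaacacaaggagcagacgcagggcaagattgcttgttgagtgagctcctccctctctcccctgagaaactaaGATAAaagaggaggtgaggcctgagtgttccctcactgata
Sptb, chr12:76710548-76710797, minus strand: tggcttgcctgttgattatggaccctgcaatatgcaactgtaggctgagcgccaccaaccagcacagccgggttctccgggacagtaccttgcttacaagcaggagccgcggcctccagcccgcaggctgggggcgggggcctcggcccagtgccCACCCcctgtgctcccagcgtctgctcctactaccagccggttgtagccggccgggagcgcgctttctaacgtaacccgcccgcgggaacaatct
RefSeq windows were given for 6 of the 8 members, Epb42 being the sixth. In the full 250 bases, GATAA was found in 5 of these 6 windows and CACCC in 5 of 6, with both in 4. Of the sequences shown above, CACCC was found in 4 and both in 3, since the CACCC of Kel lies in the bases not shown. Over all 32851 RefSeq windows of that length, GATAA was found in 22.6%, CACCC in 52.01% and both in 10.1%. The Sptb window held no GATAA. The GATAA match of Rhag began 8 bases before the annotated start, that of Kel 41, that of Rhd 42 and that of Ermap 51 bases before it. A match of 5 letters is a description of the sequence and says nothing of binding in these cells.

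In P2- MEPs Ermap, Rhag, Rhd and Kel were read at far higher levels per length than Ank1, Sptb, Epb42 and Slc4a1. Per kilobase of exon, the pooled level of Ermap was 59.1 CPM (57.9 to 60.3), that of Rhag 56.4 (54.7 to 58.2), that of Rhd 36.2 (34.5 to 37.9) and that of Kel 18.7 (17.8 to 19.6). Ank1 was at 2.403 CPM per kilobase (2.26 to 2.56, or 3.89 per kilobase of its longest transcript), Sptb at 1.01 (0.909 to 1.12), Epb42 at 0.223 (0.157 to 0.308) and Slc4a1 at 0.174 (0.113 to 0.254). Among neighbours in this order, the counting intervals of Ermap and Rhag overlapped, as did those of Epb42 and Slc4a1, and the others did not. Per kilobase of the longest transcript Ermap was at 68.8 against 56.4 for Rhag. The place of Ank1 depends on its length. Undivided by length it was at 32.5 CPM against 51.8 CPM for Kel, with a thinned read in 85.7% of P2- MEPs against 71.4%. In P2+ MEPs the order was Ermap (20.7 CPM per kilobase), Kel (14.5), Rhag (9.13), Rhd (3.40), Ank1 (1.40), Sptb (1.17), Slc4a1 (0.0453) and Epb42 (0 reads). There Kel stood above Rhag and Rhd, which in P2- MEPs stood above Kel.

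**Figure D1:**
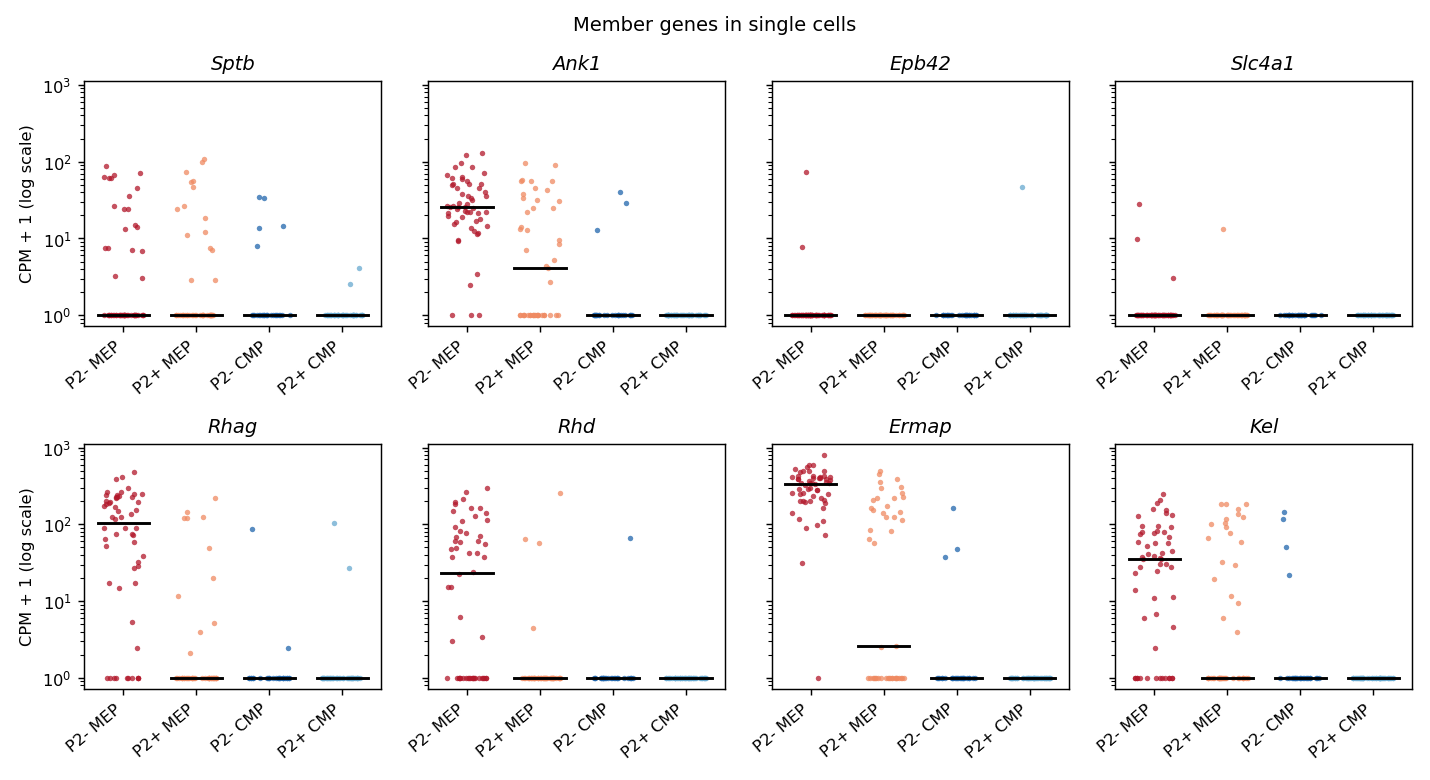
Level of each member in each cell, as CPM + 1 on a log scale, in P2- and P2+ MEPs (56 and 47 cells) and in P2- and P2+ CMPs (27 and 42 cells). Each point is 1 cell, points at the bottom have no read and the black bar is the median over cells, which for Ermap was 337.5 CPM in P2- and 1.59 CPM in P2+ MEPs.

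Sptb encodes the erythroid beta-spectrin of the mesh (chr12:76580488-76710547, minus strand, GRCm38). Its pooled level was 12.3 CPM (11.04 to 13.6) in P2- and 14.2 CPM (12.9 to 15.6) in P2+ MEPs, against 3.33 CPM (2.54 to 4.27) in P2- and 0.0825 CPM (0.0170 to 0.241) in P2+ CMPs. Most cells had no read in any population, and the highest cell reached 87.8 CPM among P2- MEPs and 107 CPM among P2+ MEPs. With each cell thinned to 100000 reads, a read was found in 16 of 56 P2- cells (28.6%, 17.3 to 42.2%) and in 13 of 47 P2+ cells (27.7%, 15.6 to 42.6%) of the MEPs. Without thinning, 5 of 27 P2- CMPs and 2 of 42 P2+ CMPs had a read.

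Ank1 encodes ankyrin-1, which binds beta-spectrin on one side and band 3 on the other (chr8:22974844-23150497, plus strand). Its pooled level was 32.5 CPM (30.5 to 34.6) in P2- and 18.9 CPM (17.4 to 20.5) in P2+ MEPs, with 2.56 CPM (1.88 to 3.41) in P2- CMPs, and no read was found in P2+ CMPs (up to 0.0825 CPM at 3 reads). Over P2- MEPs the lowest cell was at 0, the median at 24.8 and the highest at 129 CPM. Over P2+ MEPs the lowest was at 0, the median at 3.18 and the highest at 94.5 CPM. The ranges of the MEPs thus overlapped throughout, while the share of cells with a thinned read was 85.7% (73.8 to 93.6%) in P2- MEPs and 51.1% (36.1 to 65.9%) in P2+ MEPs. Exons of the antisense gene Gm15816 cover 6.37% of the exon bases of Ank1 in GENCODE vM21, and reads were counted without strand, so that reads there cannot be assigned to either gene.

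Epb42 encodes protein 4.2, which holds ankyrin-1 and band 3 together (chr2:121017891-121037072, minus strand). It had 37 reads in P2- MEPs from 2 cells, 1 of which held 83.8% of them, no read in P2+ MEPs or P2- CMPs, and 58 reads in P2+ CMPs that all came from 1 cell. Slc4a1 encodes band 3 itself, the carrier of the Diego blood group (chr11:102348824-102366203, minus strand). It had 26 reads in 3 P2- MEPs and 7 reads in 1 P2+ MEP and none in either CMP population. For both genes the pooled levels were at most 1.596 CPM and rest on 1 to 3 cells in each population with reads, so that their ratios below say little of these populations.

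Rhag encodes the Rh-associated glycoprotein, a gas and ammonium channel needed for the Rh proteins to reach the surface (chr17:40811126-40840754, plus strand). Its pooled level was 132 CPM (128 to 136) in P2- and 21.3 CPM (19.8 to 23.02) in P2+ MEPs, and 3.11 CPM (2.35 to 4.03) in P2- against 2.81 CPM (2.29 to 3.41) in P2+ CMPs. Over P2- MEPs the lowest cell was at 0, the median at 102.1 and the highest at 483 CPM, and over P2+ MEPs the lowest and the median were at 0 and the highest at 216.6 CPM. The interquartile ranges did not overlap, since the lower quartile of P2- MEPs was 16.4 CPM and the upper quartile of P2+ MEPs was 0. A thinned read was found in 78.6% (65.6 to 88.4%) of P2- MEPs and 17.02% (7.65 to 30.8%) of P2+ MEPs. In the CMPs, 1 cell held 98.2% of the reads of P2- CMPs and 1 cell 83.3% of those of P2+ CMPs.

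Rhd is the Rh blood group gene of the mouse, whose protein assembles with RHAG (chr4:134864536-134896172, plus strand). Its pooled level was 57.6 CPM (54.98 to 60.4) in P2- against 5.42 CPM (4.63 to 6.29) in P2+ MEPs. The median P2- MEP was at 22.1 CPM and the highest at 292.3 CPM, whereas only 4 of 47 P2+ MEPs had any read and 1 of them, at 252.1 CPM, held 70.2% of the reads of that population. A single P2- CMP held all 38 Rhd reads of the CMPs. With thinning, a read was found in 53.6% (39.7 to 67.01%) of P2- MEPs and 8.51% (2.37 to 20.4%) of P2+ MEPs. Of the 30 P2- MEPs with an Rhd read, 27 also had an Rhag read, and a further 17 had Rhag without Rhd. Among P2+ MEPs, 2 cells had both, 6 Rhag alone and 2 Rhd alone.

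Ermap encodes the erythroid membrane-associated protein, an immunoglobulin-like molecule that carries the Scianna blood group (chr4:119175457-119190011, minus strand). It was the most abundant member, with 52.1% of all member reads in P2- MEPs. Its pooled level was 313.01 CPM (306.8 to 319.3) in P2- and 110 CPM (106 to 114) in P2+ MEPs, with 8.02 CPM (6.77 to 9.42) in P2- CMPs, and no read was found in P2+ CMPs (up to 0.0825 CPM at 3 reads). All P2- MEPs but 1 had a read, with a median of 337.5 and a highest of 801 CPM, and the lower quartile was 203.6 CPM. Of the P2+ MEPs, 25 of 47 had a read, with a median of 1.59, an upper quartile of 168 and a highest of 489 CPM. The interquartile ranges did not overlap, yet the P2+ MEPs with the most Ermap lay well within the range of P2- MEPs. A thinned read was found in 98.2% (90.4 to 99.95%) of P2- MEPs and 48.9% (34.1 to 63.9%) of P2+ MEPs.

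Kel encodes the Kell endopeptidase (chr6:41686330-41704339, minus strand). Its pooled level was 51.8 CPM (49.3 to 54.4) in P2- and 40.3 CPM (38.1 to 42.6) in P2+ MEPs, with 7.20 CPM (6.02 to 8.54) in P2- CMPs, with no read in P2+ CMPs (up to 0.0825 CPM at 3 reads). Over P2- MEPs the lowest cell was at 0, the median at 34.3 and the highest at 246.5 CPM, and over P2+ MEPs the lowest and the median were at 0, the upper quartile at 62.2 and the highest at 183 CPM. Pooled Kel thus differed by less than 2-fold between the MEPs, while a thinned read was found in 71.4% (57.8 to 82.7%) of P2- MEPs and 38.3% (24.5 to 53.6%) of P2+ MEPs. Among P2+ MEPs, 11 cells had reads of both Ermap and Kel, 12 of Ermap alone, 7 of Kel alone and 17 of neither, whereas in P2- MEPs 39 had both, 16 Ermap alone and 1 Kel alone.

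**Figure D2:**
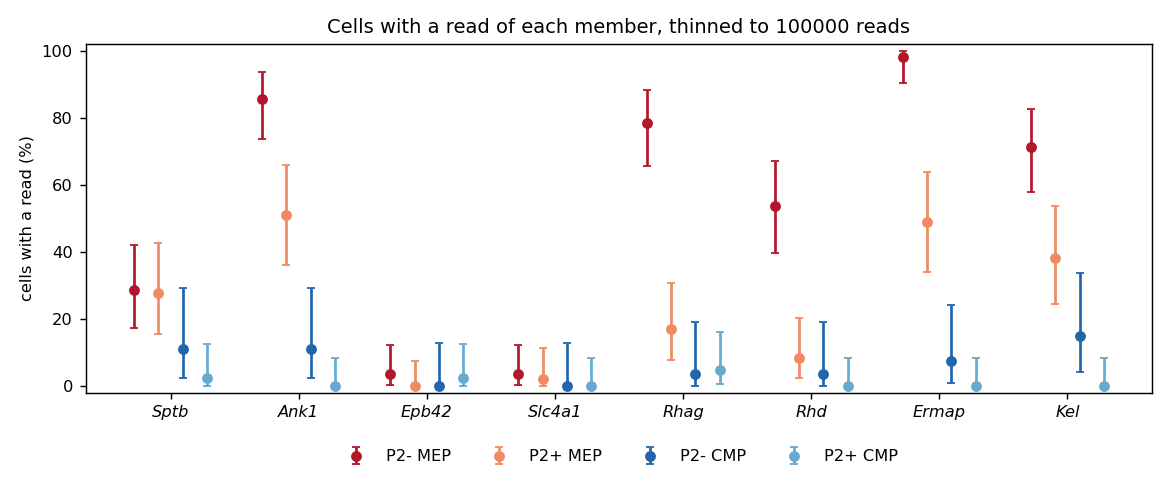
Percent of cells with at least 1 read of each member after thinning every cell to 100000 reads, with 95% Clopper-Pearson intervals, in the 4 populations. Sptb stood at 28.6% and 27.7% in P2- and P2+ MEPs, while Rhag stood at 78.6% and 17.02%.

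Between P2+ and P2- MEPs, 5 of 8 members were at least 2-fold lower in P2+ MEPs, or 3 of 6 without Epb42 and Slc4a1, against 12.5% of all 15769 genes with 10 or more reads. None was 2-fold higher, against 20.4% of all genes, and the median log2 ratio of the members was -1.72 against 0.06 over all genes. Rhd was 10.6-fold lower (log2 -3.41, counting interval -3.65 to -3.18), Rhag 6.18-fold lower (log2 -2.63, -2.75 to -2.51) and Ermap 2.85-fold lower (log2 -1.51, -1.57 to -1.45). The other 2 were Slc4a1 (log2 -1.94, -3.39 to -0.70) and Epb42, with 37 reads against none (at least 12.7-fold lower at the floor, with a counting limit of log2 -2.01). Kel (log2 -0.36, -0.47 to -0.25) and Ank1 (log2 -0.78, -0.93 to -0.64) were lower by less than 2-fold, and Sptb was at log2 0.21 (0.01 to 0.42). Without the cell of highest CPM in each population, the log2 ratio of Rhd was -5.04, while the bounds for Epb42 and Slc4a1 fell to -1.03 and -1.27. With equal weight for every cell Ank1 passed 2-fold as well (log2 -1.07), and Rhd was at log2 -2.77.

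Between P2+ and P2- CMPs, 5 of the 7 members with 10 or more reads were at least 2-fold lower in P2+ CMPs, against 14.7% of all genes. Another 1 was 2-fold higher, against 17.4%. All reads of Rhd, 1 of the 5, came from 1 P2- CMP, and all reads of Epb42, the higher member, from 1 P2+ CMP. Ermap, Kel, Ank1 and Rhd had 147, 132, 47 and 38 reads in P2- CMPs and none in P2+ CMPs, which makes them at least 97.1-fold, 87.2-fold, 31.1-fold and 25.1-fold lower at the floor of 3 reads. With the counting error of both populations, these bounds reach log2 -5.03, -4.87, -3.32 and -2.99. Sptb had 61 reads against 3 (log2 -5.33, -7.65 to -3.72). Rhag differed by less than its counting error (log2 -0.15, -0.63 to 0.35), and Epb42 was the member that was higher, by its 58 reads in 1 cell. These reads came from few cells. Without the cell of highest CPM in each population, no ratio was left for Rhd or Epb42, Rhag turned to log2 3.08 with 17 reads against 1, Sptb was at log2 -6.37 with 1 read against 41, and the bounds for Ermap, Kel and Ank1 were -5.01, -5.67 and -3.88. Without the P2- CMP of conflicting label, which held 25 of the 47 Ank1 reads and 21 of the 61 Sptb reads, the bound for Ank1 was -3.91 and the log2 ratio of Sptb was -4.78.

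The comparisons of CMPs with MEPs use the same cells again and are given for the order of levels only. All 8 members, or 6 of 6 without Epb42 and Slc4a1, were at least 2-fold lower in P2- CMPs than in P2- MEPs (15.1% of all genes lower and 25.8% higher), with log2 ratios of -5.41 for Rhag, -5.29 for Ermap, -4.80 for Rhd, -3.66 for Ank1, -2.85 for Kel and -1.88 for Sptb and with no read of Epb42 or Slc4a1 in P2- CMPs. Sptb and Kel thus differed least among the 6 members read in both, and with equal weight for every cell Kel was at -2.04. Without the P2- CMP of conflicting label Ank1 was at -4.71. In P2+ CMPs, 6 of the 7 members with 10 or more reads were at least 2-fold lower than in P2+ MEPs (16.5% of all genes lower and 23.2% higher), Epb42 being the exception. At the floor of 3 reads Ermap was at least 1331-fold lower there (counting limit log2 -8.83) and Kel at least 489-fold lower (log2 -7.38). Without the cell of highest CPM in each population, the log2 ratios of P2- CMPs over P2- MEPs were -11.07 for Rhag, where 1 read remained, -6.82 for Ermap, -4.63 for Ank1 and -3.44 for Kel, and the bounds were -8.32 for Rhd, -0.23 for Epb42 and -0.47 for Slc4a1. In the same way the values of P2+ CMPs over P2+ MEPs were -5.00 in place of -2.93 for Rhag and -8.72 in place of -7.43 for Sptb, with 1 Sptb read left. The bound for Rhd was -4.28 in place of -6.04.

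**Figure D3:**
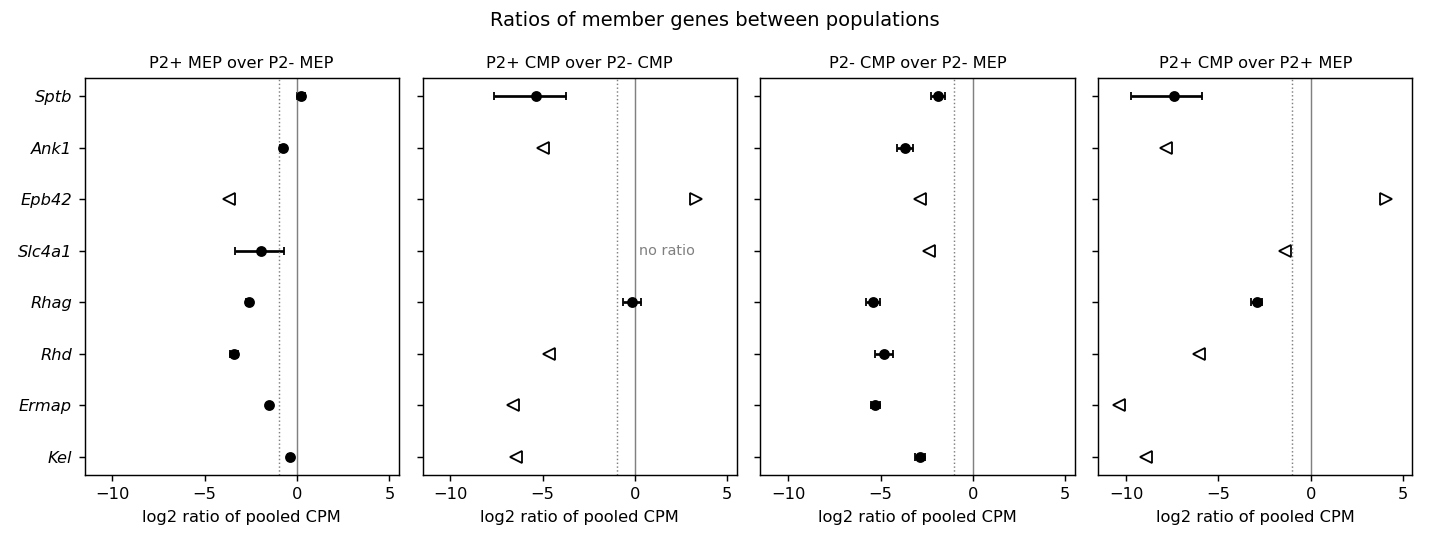
Log2 ratios of pooled CPM for the 8 members in the 4 comparisons. Filled points carry 95% counting intervals, open triangles are bounds where 1 population had no read, set at 3 reads, and the dotted line marks 2-fold lower. In the MEPs, Rhd and Rhag lie at -3.41 and -2.63 and Sptb at 0.21.

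More members were read per cell in P2- MEPs than in the other populations. After thinning, the median P2- MEP had reads of 4.5 of the 8 members, with a range of 1 to 7, and 41 of 56 cells had 4 or more. The median P2+ MEP had 2 (1 when thinned to 50000 reads), with a range of 0 to 5, and 8 of 47 cells had 4 or more. The median was 0 in both CMP populations, where the highest counts were 2 members in P2- CMPs and 1 in P2+ CMPs, and 16 of 27 P2- CMPs and 38 of 42 P2+ CMPs had none. No P2- MEP lacked all members, which allows a share of up to 6.38%, against 7 of 47 P2+ MEPs (14.9%, 6.20 to 28.3%).

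**Figure D4:**
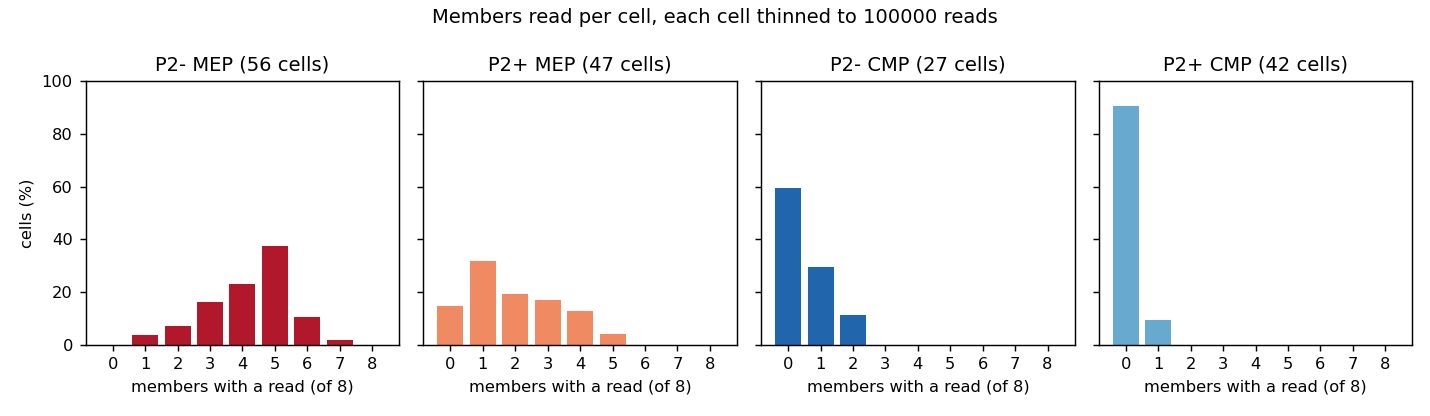
Percent of cells by the number of members with a read, each cell thinned to 100000 reads, in the 4 populations. P2- MEPs most often had 4 or 5 members (23.2% and 37.5% of cells), the most frequent number in P2+ MEPs was 1 (31.9%), and 90.5% of P2+ CMPs had none.

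Reads of Klf1, an erythroid transcription factor, were found in most MEPs and most P2- CMPs with a member read, but in no P2+ CMP with one. Without thinning, Klf1 reads were found in all 56 P2- and 40 of 47 P2+ MEPs, but in 14 of 27 P2- and 2 of 42 P2+ CMPs. Since all P2- MEPs had Klf1 reads, these cells cannot show whether members and Klf1 go together. All P2+ MEPs with Rhag, Rhd or Kel reads, 11, 4 and 20 cells, also had Klf1 reads, while 4 of the 25 with Ermap reads did not. In P2- CMPs, the 10 cells with a read of any member but Rhag all had Klf1 reads. The 2 P2- CMPs and the 2 P2+ CMPs with Rhag reads had none, and 1 of these P2- CMPs had a single Rhag read. All 4 had reads of Mpo, the granulocyte myeloperoxidase, at between 129 and 480 CPM. The P2+ CMP that held all Epb42 reads of its population likewise had no Klf1 read and 773 CPM of Mpo. Mpo was read in 23 of 27 P2- CMPs and 40 of 42 P2+ CMPs, so that most CMPs had reads of it. The 10 P2- CMPs with reads of Klf1 and of a member other than Rhag had between 0 and 527 CPM of Mpo. None of the 4 P2+ CMPs with a read of any member had a Klf1 read.

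A list of 16 other genes of the membrane skeleton also held genes of membrane proteins, such as Slc2a1, Piezo1, Kcnn4 and Stom. Of these 16 genes, 2 were at least 2-fold lower and 2 at least 2-fold higher in P2+ MEPs than in P2- MEPs. Their median log2 ratio was -0.11. These counts are no more than the shares over all genes (12.5% lower and 20.4% higher). The 5 of largest ratio were Tmod1, which caps actin filaments (9.56 against 0.621 CPM, log2 3.95), Add2, beta-adducin (27.6 against 85.1 CPM, log2 -1.62), Stom, stomatin (21.3 against 59.5 CPM, log2 -1.48), Tmod3, a widely used relative of Tmod1 (72.8 against 29.5 CPM, log2 1.30), and Dmtn, dematin (5.54 against 10.9 CPM, log2 -0.98). In P2+ over P2- CMPs 1 of 15 genes was lower and 1 higher, against 14.7% and 17.4% of all genes (median log2 0.01), the lower one being Add2, which had no read in P2+ CMPs. In P2- CMPs over P2- MEPs 6 of 16 were lower and 4 higher, against 15.1% and 25.8% of all genes (median log2 -0.61), with Add2 (2.73 against 85.1 CPM, log2 -4.96) and Dmtn (0.382 against 10.9 CPM, log2 -4.84) among the 5 of largest ratio. In P2+ CMPs over P2+ MEPs 5 of 16 were lower and 2 higher, against 16.5% and 23.2% (median log2 -0.16).

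The non-erythroid relatives were taken as 17 genes. Most are of the protein families of the members, while Epb41l1, Epb41l2, Epb41l3 and Epb41l5 are relatives of protein 4.1, which is not a member. In P2+ over P2- MEPs 3 of 12 were lower and 5 higher, against 12.5% and 20.4% of all genes, with a median log2 ratio of 0.62. In P2+ over P2- CMPs 0 of 10 were lower and 2 higher, against 14.7% and 17.4% (median log2 -0.04). Sptan1, a spectrin of most other cells, was at 6.37 CPM in P2- and 54.3 CPM in P2+ MEPs, against 71.2 CPM in P2- and 118 CPM in P2+ CMPs, and its log2 ratio in the MEPs was 3.09 (2.88 to 3.31). Per kilobase, Sptan1 stood at 0.477 CPM in P2- and 4.07 CPM in P2+ MEPs, below Sptb in the first and above it in the second. Sptbn1, the beta-spectrin of most other cells, was at 1.80 CPM per kilobase in P2- MEPs and 4.05 in P2+ MEPs, above Sptb in both. In P2- CMPs over P2- MEPs 3 of 12 relatives were lower and 6 higher, against 15.1% and 25.8% (median log2 1.27), and in P2+ CMPs over P2+ MEPs 1 of 11 was lower and 3 higher, against 16.5% and 23.2% (median log2 0.84).

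**Figure D5:**
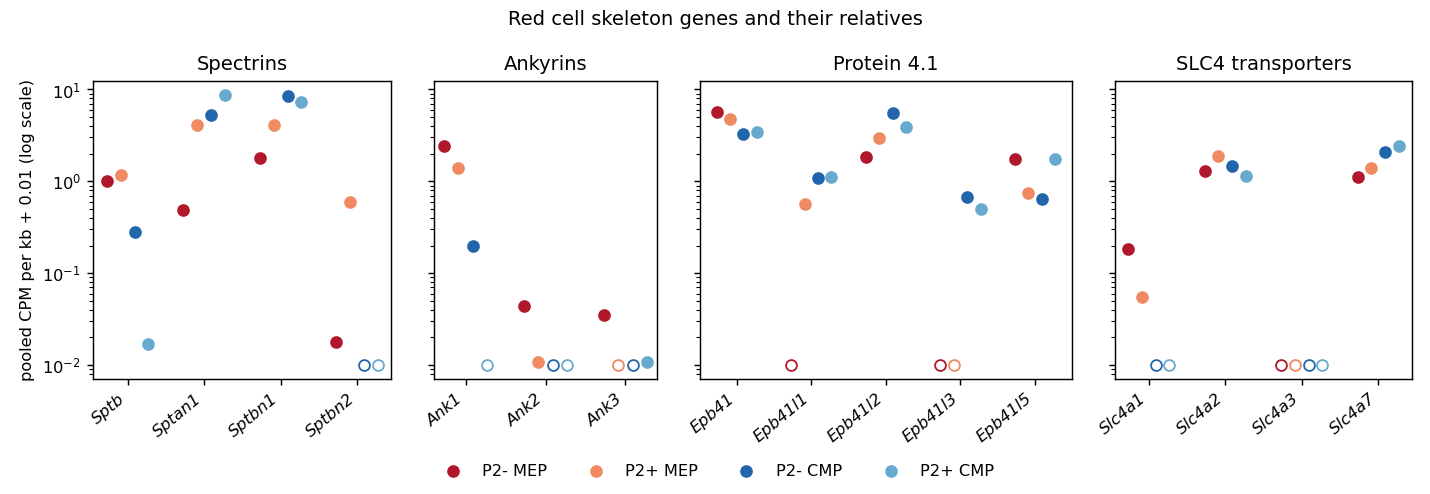
Pooled level per kilobase of exon, plus 0.01 on a log scale, of red cell skeleton genes and their relatives in 4 protein families, with 1 point per population and open points where no read was found. Sptan1 runs from 0.477 CPM per kilobase in P2- MEPs upwards, while Ank1 is highest in P2- MEPs at 2.403.

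Of 26 other blood group genes, 4 of 20 with enough reads were at least 2-fold lower and 5 at least 2-fold higher in P2+ than in P2- MEPs, against 12.5% and 20.4% of all genes, with a median log2 ratio of 0.19. The 5 of largest ratio were Aqp3, a water and glycerol channel (no read against 1.93 CPM), Gcnt2, the enzyme that builds the I antigen (7.73 against 0.392 CPM, log2 4.30), Ackr1, the Duffy receptor (no read against 1.73 CPM), Abcc4, a nucleotide exporter (8.74 against 38.1 CPM, log2 -2.12), and Cd151, a tetraspanin (7.44 against 1.73 CPM, log2 2.10). In P2+ over P2- CMPs 5 of 20 were lower and 2 higher, against 14.7% and 17.4% (median log2 -0.12). The largest ratios were those of Sema7a (no read against 2.07 CPM), Aqp1, a water channel (6.66 against 1.20 CPM, log2 2.47), and Smim1, the carrier of Vel (11.4 against 63.2 CPM, log2 -2.47). Smim1 was at 191 and 166 CPM in P2- and P2+ MEPs. In P2- CMPs over P2- MEPs 7 of 22 were lower and 7 higher, against 15.1% and 25.8% (median log2 0.00), the largest ratios being those of Gcnt2 (61.4 against 0.392 CPM, log2 7.29) and Aqp1, the water channel of the Colton group (1.20 against 51.7 CPM, log2 -5.43). In P2+ CMPs over P2+ MEPs 5 of 19 were lower and 3 higher, against 16.5% and 23.2% (median log2 -0.07).

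The genes whose levels followed the members most closely over all 172 cells were named by Pearson's r of log2(CPM + 1), among 9238 genes read in at least 25% of cells. These values are a description, since the cells share 4 populations and the counts are sparse. For Ermap they were Tnfaip2 (r = 0.78), Pklr, the pyruvate kinase of red cells (0.78), and Mt2, a metallothionein (0.77). For Rhag they were Pklr (0.73), Atp1b2, a subunit of the sodium pump (0.63), and Tnfaip2 (0.61), and for Rhd Atp1b2 (0.63), Atp7b, a copper transporter (0.60), and Pklr (0.57). For Ank1 they were Slc38a5, an amino acid transporter (0.73), Klf1 (0.71) and Mt2 (0.70), and for Kel Klf1 (0.61), Pklr (0.58) and Tnfaip2 (0.58). Sptb had no gene above 0.40, which was Smim1, followed by Cited4 (0.38) and Gm15915 (0.34). For Epb42 and Slc4a1, read in 3 and 4 cells, no r was above 0.29.

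Within a population the members were only loosely related over cells. In the 56 P2- MEPs the highest r between 2 of the 6 members with enough reads was 0.36, for Ermap and Rhag (Spearman's rho 0.29), and Klf1 was not followed by any of them (r between -0.16 and 0.10). In the 47 P2+ MEPs it was 0.53, for Ank1 and Ermap (rho 0.55), and Klf1 had an r of 0.48 with Kel (rho 0.60) and 0.45 with Ank1 (rho 0.44). Depth was shared by the genes of a cell, and the rho of a member with the reads of the cell was between -0.27 and 0.10 in P2- MEPs and between -0.17 and 0.23 in P2+ MEPs.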

How the data were processed

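RNA of single sorted cells was sequenced after a modified Smart-Seq2 protocol with ERCC RNA added and no molecular identifiers. The authors trimmed reads with Trimmomatic 0.36, aligned them with STAR 2.4.2a to GRCm38 with the ERCC sequences, and assigned them by HTSeq 0.6.1p1 to GENCODE M12 exons without regard to strand. They deposited raw counts per gene and cell, and the unmapped percent of reads per cell, which the authors took from the alignment. The 5 HTSeq rows that name no gene (50.8% of all entries) were left out.

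Cells under 250000 reads, over 25% unmapped or over 15% ERCC were removed, as the article states. No doublet caller was run. Depth was between 571806 and 2827426 total reads per cell. Counts were summed per population and divided by summed mouse reads (CPM). A population without reads was set to 3 reads, and its ratio called a bound. Intervals are at 95%: exact Poisson for levels, exact conditional binomial for ratios and Clopper-Pearson for shares. Shares were taken after thinning to 100000 reads (seed 1), which left out 0 cells. Ratios were tried on simulated Poisson counts, which hold neither PCR copies nor spread between cells and so cannot show how the intervals behave under either. A gene was counted as lower or higher from 2-fold on, and background shares use genes of 10 or more summed reads. Exon lengths, positions and overlaps are those of GENCODE vM21, a later release on the same build.

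The members and lists were chosen with earlier results of these data known. The lists were other membrane and membrane skeleton genes, other blood group genes and non-erythroid relatives. Of these lists the 5 genes of largest ratio in a comparison were named. Further lists were the 3 genes most like each member, and erythroid, megakaryocytic, granulocyte/monocyte, macrophage, hepatocyte, and stem and multipotent markers. Some listed genes are not reported here. Klf1 and Mpo in single CMPs and the relatives of spectrin were chosen with their values known. Alternatives tried were mean CPM over cells, size factors of DESeq2 1.42.0, every deposited cell, leaving out the top cell of each gene, CPM without mitochondrial and Rn18s-rs5 reads, no cell of conflicting label, folds of 1.5 and 4, minimums of 1 and 50 reads, other thinning, the longest transcript and log2(CPM + 10). Python 3.11.15, scipy 1.17.1 and R 4.3.3 were used.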

Additional observations from a re-analysis of the deposited data

Results flagged for a closer look

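The log2 ratio of P2+ over P2- went opposite ways in MEPs and CMPs for 2 members, and the difference between the compartments was not tested. Sptb was at 0.21 in MEPs (0.03 with equal weight for every cell, with a thinned read in 28.6% of P2- and 27.7% of P2+ cells) and at -5.33 in CMPs, where it rests on 61 reads of 5 P2- CMPs against 3 reads of 2 P2+ CMPs. Epb42, with the population without reads set to 3 reads, was at -3.67 in MEPs (counting limit -2.01), from 37 reads of 2 P2- MEPs, and at 3.29 in CMPs (counting limit 1.67), from 58 reads of 1 P2+ CMP, without which no ratio was left.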

How the results depend on the processing

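At a fold of 4 the number of members lower in P2+ MEPs was 3 in place of 5, namely Rhag, Rhd and the bound of Epb42, against 7.54% of all genes in place of 12.5%. Without the cell of highest CPM in each population, the log2 ratio of Rhag in P2+ over P2- CMPs turned from -0.15 to 3.08, by construction, since 1 cell held 98.2% of the P2- CMP reads, and the members counted as lower went from 5 to 4 in P2+ CMPs and from 8 to 6 in P2- CMPs against P2- MEPs. Of 182 recomputed member ratios under 6 alternatives, 158 stayed within the counting interval of the reported value, 23 moved out of it in the same direction and 1 reversed. For the 14 of 31 ratios that are bounds, this interval was taken at the 3 reads of the floor. With DESeq2 size factors, every deposited cell, or a denominator without mitochondrial genes and Rn18s-rs5, all stayed within it. With 50 reads as the minimum the share of all genes lower in P2+ MEPs was 7.12% in place of 12.5%, and in P2- CMPs against P2- MEPs 9.87% in place of 15.1%. Per kilobase of the longest transcript in place of all exons, Ermap was at 68.8 and Ank1 at 3.89 CPM in P2- MEPs. Thinning to 50000 or 200000 reads or not at all left the median number of members read per cell within its order-statistic interval (4 to 5 for P2- and 1 to 2 for P2+ MEPs), although in P2+ MEPs it was 1 in place of 2 at 50000 reads. With log2(CPM + 10), r of Ank1 and Ermap in P2+ MEPs was 0.48 and of Kel and Klf1 0.50. No paired analysis was possible because each population is 1 pooled sample and the replicate numbers only name cells. Depth limits the members at 0, since 3 reads over a population stand for between 0.0825 and 0.164 CPM.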

Other observations

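A P2- MEP without any Ermap read was 1 of 56, and that cell had a Kel read after thinning. Of the 47 P2+ MEPs, 5 had a member read and no Klf1 read, and 3 had a Klf1 read and no member read. In P2- CMPs, 4 of the 14 cells with Klf1 reads had no member read. The summed level of the 8 members was 601 CPM in P2- and 210.2 CPM in P2+ MEPs, against 26.3 CPM in P2- and 4.48 CPM in P2+ CMPs. Ermap held 52.1% of the member reads of P2- and 52.2% of those of P2+ MEPs, while the share of Kel was 8.62% and 19.2% and that of Rhd 9.59% and 2.58%.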
